A study of Homo sapiens with 24 samples.

Results

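The clustered protocadherins are 53 protein-coding genes of human chromosome 5 whose symbols begin with PCDHA, PCDHB or PCDHG in RefSeq on hg38. They comprised 15 alpha, 16 beta and 22 gamma genes, out of 19974 protein-coding genes on chromosomes 1 to 22 and X. The rule for members used their symbols and position and no measured value, but it was set with earlier results of these data known. The data were H4K20me3 CUT&RUN peaks of HN-SCC-151, a wild-type human line from a squamous cell carcinoma of the head and neck without HPV. H4K20me3, trimethylated lysine 20 of histone H4, is a mark of silent heterochromatin, and CUT&RUN uses an antibody-bound nuclease to release and sequence the DNA around it. The groups used were 3 libraries of cells given DMSO and 3 of cells given A-196 at 2.5 µM, an inhibitor of the H4K20 methyltransferases SUV420H1 and SUV420H2, 4 libraries of cells given siNC control siRNAs, and 4 of cells given siRNAs against SUV420H1 (siSUV420H1). Every treatment lasted 6 days. All groups share the same unmodified cell line, and the siRNA groups differ from the inhibitor groups also in the IgG library against which their peaks were called. The design text gives 3 dishes per condition, so some of the 4 libraries of an siRNA group may share a dish, and p-values measure the spread between libraries only.

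Clustered protocadherins are cell adhesion proteins of the cadherin superfamily, best known from neurons, where each cell expresses its own combination of them and uses it to tell its own processes from those of other cells. Each gene has a variable exon with its own promoter. Transcripts of alpha and gamma genes are spliced from a variable exon to constant exons that all genes of that cluster share, while beta genes have no shared constant exons. CTCF and cohesin bring a distant enhancer to the promoter that is used, and promoters that are not used carry DNA methylation and repressive chromatin. The C-type genes at the end of the alpha and gamma clusters (PCDHAC1, PCDHAC2, PCDHGC3, PCDHGC4 and PCDHGC5) are known to be regulated apart from the other variable genes.

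The promoters show which sequences lay under the mark and which did not. RefSeq sequences (GRCh38.p14) from 250 bases before to 50 bases after the start were matched for 46 of the 53 genes, namely 13 alpha, 14 beta and 19 gamma genes, all on the plus strand. Given whole are PCDHGB4, whose start lay under a peak in all 14 libraries, PCDHB13, whose start lay under a peak in every siSUV420H1 and no siNC library, and PCDHA1, whose start lay under none. In all sequences below, capitals mark the 10 bases closest to the word of that length found in the most promoters of the same cluster, the first in alphabetical order where words tied.
PCDHGB4, chr5:141387448-141387747: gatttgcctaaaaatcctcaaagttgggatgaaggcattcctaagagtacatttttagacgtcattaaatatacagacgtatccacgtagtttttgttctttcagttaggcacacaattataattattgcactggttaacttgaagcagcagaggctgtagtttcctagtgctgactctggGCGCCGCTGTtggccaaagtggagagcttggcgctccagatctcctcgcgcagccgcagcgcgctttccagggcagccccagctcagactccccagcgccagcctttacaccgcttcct
PCDHB13, chr5:141213669-141213968: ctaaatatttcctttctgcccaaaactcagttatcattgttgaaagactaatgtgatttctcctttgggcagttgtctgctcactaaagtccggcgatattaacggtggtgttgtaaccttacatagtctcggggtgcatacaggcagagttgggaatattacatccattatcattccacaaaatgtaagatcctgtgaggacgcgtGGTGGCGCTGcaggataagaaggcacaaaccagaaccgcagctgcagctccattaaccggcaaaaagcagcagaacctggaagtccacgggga
PCDHA1, chr5:140785890-140786189: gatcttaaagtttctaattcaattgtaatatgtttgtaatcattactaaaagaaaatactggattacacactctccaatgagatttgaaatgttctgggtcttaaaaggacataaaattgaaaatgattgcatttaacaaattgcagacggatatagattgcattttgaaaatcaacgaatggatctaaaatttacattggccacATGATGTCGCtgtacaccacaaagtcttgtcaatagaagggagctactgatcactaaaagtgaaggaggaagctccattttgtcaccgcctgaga

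Windows around the same capitals show the other genes on which the results turn. PCDHGA8 and PCDHGA10 had their start under a peak in all 14 libraries, PCDHB14 and PCDHB15 are the last genes of beta along the chromosome, PCDHGB5 and PCDHGA9 differed between the siRNA groups, and PCDHGC3, a C-type gene, had no peak over its variable region.
PCDHGA8, chr5:141392565-141392604: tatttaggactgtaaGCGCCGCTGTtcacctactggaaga
PCDHGA10, chr5:141412928-141412967: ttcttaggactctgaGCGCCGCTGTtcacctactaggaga
PCDHGB5, chr5:141397860-141397899: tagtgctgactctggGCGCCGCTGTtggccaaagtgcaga
PCDHGA9, chr5:141402711-141402750: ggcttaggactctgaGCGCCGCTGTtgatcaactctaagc
PCDHB14, chr5:141223259-141223298: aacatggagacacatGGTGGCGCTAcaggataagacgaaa
PCDHB15, chr5:141245310-141245349: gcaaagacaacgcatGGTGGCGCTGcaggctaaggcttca
PCDHGC3, chr5:141475877-141475916: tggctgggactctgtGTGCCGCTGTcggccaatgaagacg

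This word was ATGATGTCGC in 8 of 13 alpha promoters, GGTGGCGCTG in 12 of 14 beta promoters and GCGCCGCTGT in 9 of 19 gamma promoters, read on the gene's strand. On either strand, these words occurred in 0.0313%, 0.276% and 0.131% of the 35116 RefSeq promoters of the same length. Those promoters include the members' own. The words were chosen as the most frequent in each cluster, so a higher share there was built in. The 4 letters CGCT, the core of the conserved element known from these promoters and part of the beta and gamma words, were found on either strand in 45 of the 46 promoters and in 70.01% of all promoters. The pattern searched for as the core of the CTCF motif was found in 1 of 46, a beta promoter, and in 10.6% of all promoters. Sites that depart from this pattern or lie outside the window are missed. The low count therefore does not show that these promoters lack CTCF sites. CGCT stood in all 3 promoters whose start was under a peak in every library, in 13 of 13 with a peak in some libraries and in 29 of 30 with a peak in none. These matches describe the letters in this window and do not show binding. The median GC content in those 3 classes was 38.3%, 39.7% and 39.7%, so the medians differed little. The ranges were 36% to 49.7%, 35.7% to 48.3% and 32.3% to 66%, and the class with no peak held all matched C-type promoters. The 4 C-type promoters that were matched had a median GC content of 61.8% and a median of 20.5 CpG, against 38.7% and 7 in the other 42. Some promoters are close copies: PCDHGB4 and PCDHGB5 share an identical run of 78 bases, PCDHB8 and PCDHB13 one of 55 bases, and PCDHGB6 and PCDHGB7 one of 38 bases. How reads that match several copies were assigned is not given in the sources used here, so the mark over such copies is less certain.

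H4K20me3 peaks lay over the end of the beta cluster, the interval between beta and gamma, and blocks of the gamma variable genes between PCDHGA1 and PCDHGA12, and no library had a peak over alpha. The alpha stretch runs from the start of PCDHA1 to the end of the cluster (chromosome 5, 140786140 to 141012347, 226 kb), the beta stretch from PCDHB1 to PCDHB15 (141051374 to 141249365, 198 kb) and the gamma stretch from PCDHGA1 to the shared end of the gamma genes (141330514 to 141512975, 182 kb). Peaks covered 105 to 134 kb of the 727 kb from the first alpha to the last gamma gene in DMSO libraries, 107 to 171 kb with A-196, 145 to 158 kb with siNC and 183 to 190 kb with siSUV420H1. The first covered base lay between 141195001 and 141226001 and the last between 141417000 and 141436000. The longest distance from first to last covered base in a library was 241 kb.

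**Figure D1:**
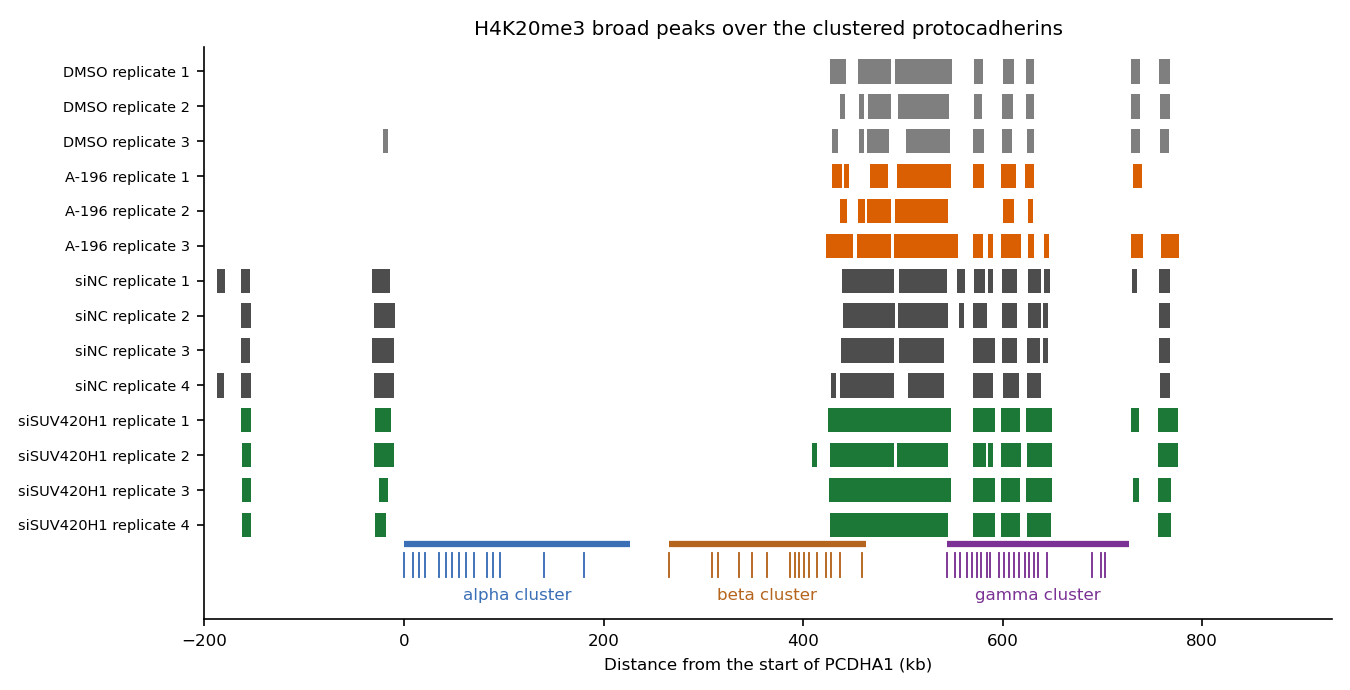
Broad H4K20me3 peaks (bars) in each of the 14 libraries, 1 row per library, against distance in kb from the start of PCDHA1; ticks at the bottom are gene starts and horizontal lines the alpha, beta and gamma stretches. No library has a bar over alpha, all 14 have bars from the end of beta into gamma, and the bars just before alpha appear in all 8 libraries of the siRNA arm and in 1 DMSO library.

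The genes of the alpha cluster, which encode protocadherins with a shared cytoplasmic constant part, carried no peak. The stretch held 0 kb and 0 peaks in each of the 14 libraries, and so did the constant region (140978949 to 141012344), the 39 kb between alpha and beta, and both alpha C-type genes, PCDHAC1 and PCDHAC2. All 15 alpha genes were without a peak in every library, from PCDHA1 at the first end to PCDHAC2 at the last. Signal too weak to be called as a peak cannot be seen, because the lists give no read counts. Neither comparison could show a difference here (two-sided exact permutation test, p = 1 in both arms).

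In beta the mark was limited to the last genes of the cluster. Peaks covered 24.4, 10 and 11 kb of the beta stretch in the 3 DMSO libraries and 15, 14 and 36.4 kb in the 3 A-196 libraries. With siNC they covered 24.4, 23.4, 25.4 and 31.4 kb, and with siSUV420H1 38.4, 41.4, 37.4 and 36.4 kb. The inhibitor groups overlapped, whereas every siSUV420H1 library was above every siNC library. Means were 15.1 ± 8.02 kb for DMSO and 21.8 ± 12.6 kb for A-196 (SD, n = 3), and 26.1 ± 3.59 kb with siNC and 38.4 ± 2.16 kb with siSUV420H1 (SD, n = 4). The difference was 6.67 kb with A-196 (two-sided exact permutation test, p = 0.5, adjusted p = 1 over 9 tests) and 12.3 kb, or 46.9%, with siSUV420H1 (two-sided exact permutation test, p = 0.0286, adjusted p = 0.129). The siRNA value is the smallest p that 4 libraries against 4 can give, and 3 against 3 cannot go below 0.1. Among the 9 tests are those of alpha, where all values are 0. In this family, p = 0.0286 from the permutation test could not pass the threshold of 0.05 after Benjamini-Hochberg adjustment. Missing the threshold was therefore settled in advance. Of windows of the beta stretch's length tiled over the genome, 7.84% were higher in every siSUV420H1 than in every siNC library, and 48.7% were lower.

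Peak edges could be followed gene by gene in segments that run from a gene's start to the base before the next gene's start in its cluster, which do not overlap, whereas whole alpha and gamma spans share their end. A segment with 200 bp or more under peaks in a library was counted as marked there. A segment also holds the DNA between the gene and the next start, so a marked segment need not mean a covered gene or start. The first 10 beta genes along the chromosome (PCDHB1 to PCDHB8, PCDHB16 and PCDHB9) had no peak in any library, and of the other 6 PCDHB10 and PCDHB11 had one in siSUV420H1 replicate 2 alone. PCDHB15, the last beta gene (141245395 to 141249365), was covered over its whole segment of 3.97 kb in all 8 libraries of the siRNA arm. In DMSO libraries 3.97, 1.61 and 1.61 kb of it were covered, and in A-196 libraries 0, 2.61 and 3.97 kb.

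PCDHB14 (141223343 to 141227759, segment 22.1 kb) was the beta gene whose segment was marked in all 14 libraries. The gene itself had no peak in DMSO replicate 3, where the covered part of the segment lay beyond its end. In DMSO libraries 10.1, 8.05 and 3.39 kb of its segment were covered, and in A-196 libraries 6.66, 11.1 and 18.1 kb. They covered 20.4, 19.4, 21.4 and 22.1 kb with siNC and all 22.1 kb in each siSUV420H1 library, so siNC replicate 4 equalled the siSUV420H1 libraries and the groups touched. The next gene upstream, PCDHB13 (141213919 to 141218979), showed the largest difference of any member: peaks covered 0, 0, 0 and 5.34 kb of its segment with siNC and the whole 9.42 kb in each of the 4 siSUV420H1 libraries. In the inhibitor arm the same segment varied within both groups, with 9.42, 0.342 and 6 kb with DMSO and 8.34, 0.342 and 9.42 kb with A-196. The segment of PCDHB12, just before PCDHB13, had no peak in any siNC library and 2.92, 0.918, 1.92 and 0.918 kb in the siSUV420H1 libraries. Over the gene itself (141208719 to 141212571) the siSUV420H1 libraries held 1.57, 0, 0.571 and 0 kb, so there the groups overlapped. The segment also held 0.918 kb in DMSO replicate 1 and 4.92 kb in A-196 replicate 3. In these libraries of their groups the domain reached farthest into beta.

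**Figure D2:**
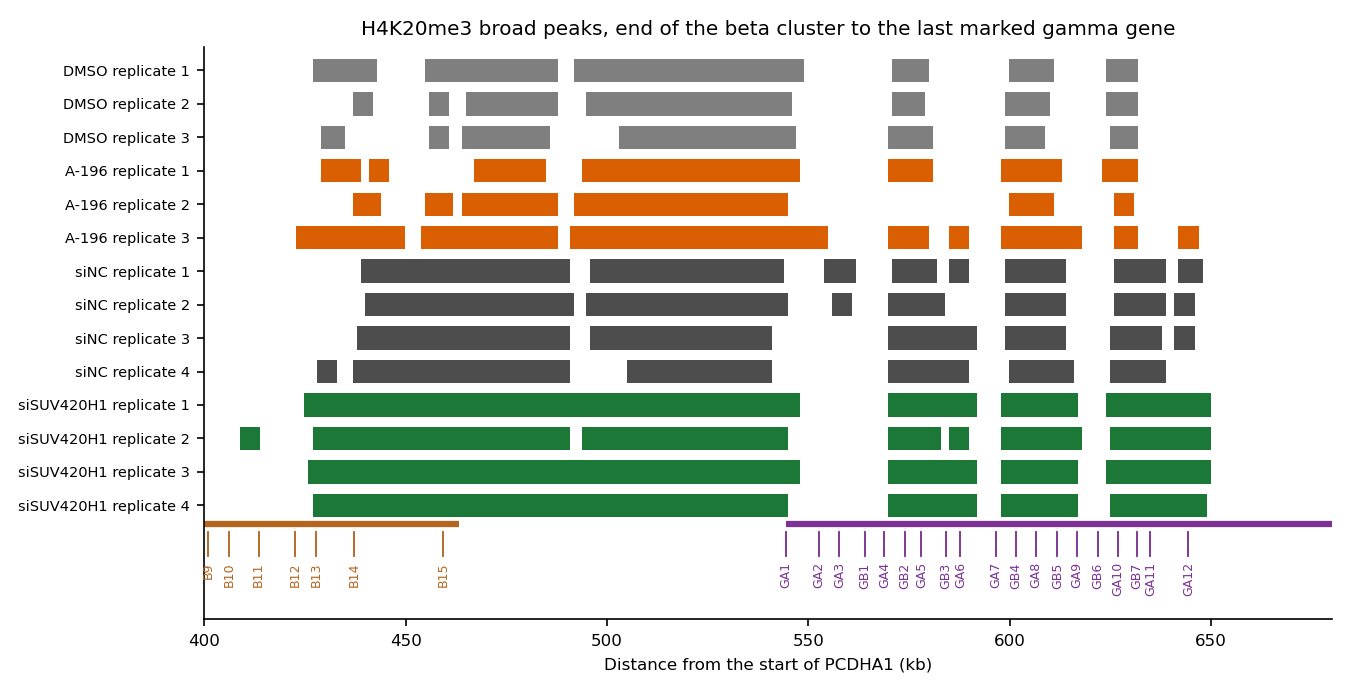
The same peaks at larger scale, 1 row per library, from the last beta genes to the end of the marked part of gamma; ticks are gene starts labelled without the letters PCDH, and the x axis is distance in kb from the start of PCDHA1. In siSUV420H1 replicates 1, 3 and 4 a single bar of 118 to 123 kb runs from the segment of PCDHB12 to the start of gamma, and in the other 11 libraries it is split.

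The interval between beta and gamma was the most evenly marked part of the locus. It spans 81.1 kb (141249366 to 141330513) and contains SLC25A2, a mitochondrial ornithine transporter, and TAF7, a subunit of the general transcription factor TFIID. Peaks covered all of both genes in each of the 14 libraries. Over the interval they covered 77.1, 72.5 and 63.5 kb with DMSO and 68.5, 76.5 and 78.1 kb with A-196. With siNC they covered 75.6, 78.1, 72.6 and 63.6 kb, and with siSUV420H1 81.1, 78.1, 81.1 and 81.1 kb, the groups of each arm overlapping. The widest peak of the locus measured 44 to 57 kb with DMSO, 53 to 64 kb with A-196 and 52 to 54 kb with siNC. With siSUV420H1 it measured 123, 64, 122 and 118 kb, because in replicates 1, 3 and 4 a split that the other 11 libraries had in this interval, 3 to 17 kb wide, was under a peak. The number of peaks in the locus was 6.67 ± 0.577 for DMSO and 7 ± 1 for A-196 (SD, n = 3). It was 8, 7, 6 and 6 with siNC and 4, 7, 4 and 4 with siSUV420H1, so siSUV420H1 replicate 2, with 7 peaks, lay within the siNC range.

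In gamma, whose genes alternate between A and B types and share constant exons at the end of the cluster, peaks lay over the variable genes in separate blocks. They covered 32.5, 28.5 and 30.5 kb of the gamma stretch with DMSO and 38.5, 16.5 and 56.5 kb with A-196. With siNC they covered 58, 52.5, 55 and 50 kb, and with siSUV420H1 70.5, 63.5, 70.5 and 65.5 kb. As in beta, the inhibitor groups overlapped and each siSUV420H1 library was above each siNC library. The means were 30.5 ± 2 kb for DMSO and 37.2 ± 20.03 kb for A-196 (SD, n = 3), and 53.9 ± 3.43 kb with siNC and 67.5 ± 3.56 kb with siSUV420H1 (SD, n = 4). The difference was 6.67 kb in the inhibitor arm (two-sided exact permutation test, p = 0.7, adjusted p = 1) and 13.6 kb, or 25.3%, in the siRNA arm (two-sided exact permutation test, p = 0.0286, adjusted p = 0.129). With only peaks of at least the arm's median width, the gamma difference was 2 kb in the inhibitor arm and 20.9 kb in the siRNA arm. Among tiled windows of the gamma stretch's length, 7.83% were higher and 48% lower in every siSUV420H1 library than in every siNC library. The 2 arms' log2 ratios differed by -0.04 in beta and -0.04 in gamma (exact permutation within arms, p = 0.966 and 0.937, adjusted p = 1 for both), which does not show that the arms act alike.

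**Figure D3:**
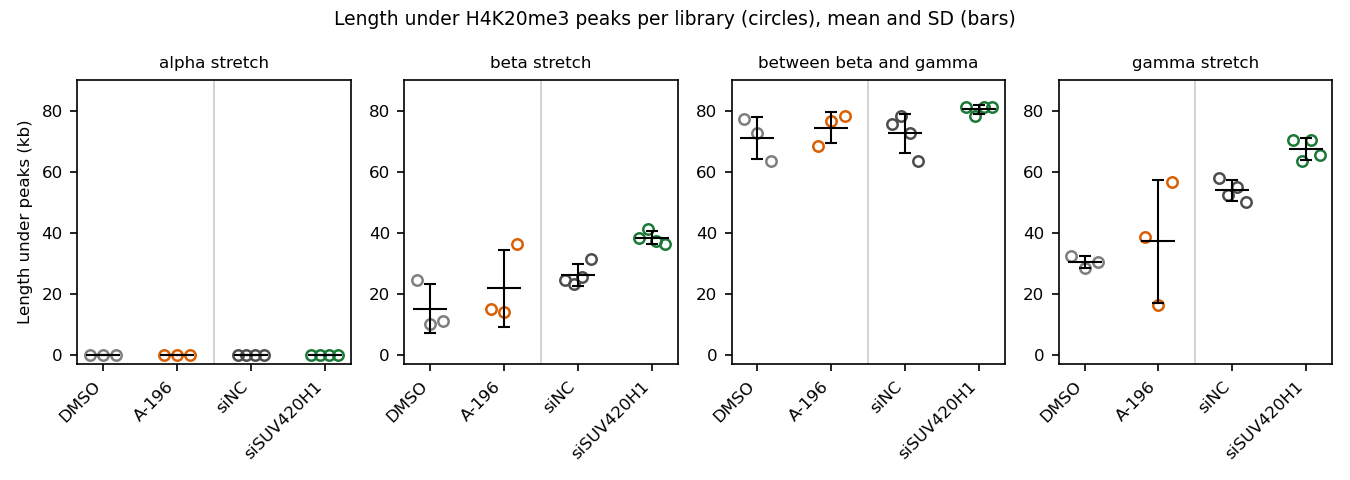
Length under H4K20me3 peaks in kb (y axis) in the alpha stretch, the beta stretch, the interval between beta and gamma and the gamma stretch, by group (x axis); circles are libraries, and bars are group means with SD (n = 3 for DMSO and A-196, n = 4 for siNC and siSUV420H1). All circles for alpha are at 0, the 4 siSUV420H1 circles lie above the 4 siNC circles in beta and in gamma, and the A-196 circles are spread from 16.5 to 56.5 kb in gamma.

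A-196 replicate 3 carried the difference in the inhibitor arm. Without it the difference was -0.62 kb in beta and -3 kb in gamma. The number of marked members was 21 in this library, 13 in A-196 replicate 1 and 9 in A-196 replicate 2, against 14, 13 and 13 in the DMSO libraries. A-196 replicate 2 lacked the block over PCDHGA4, PCDHGB2 and PCDHGA5 that the other 13 libraries had. Its peaks were more numerous over the genome than those of the other A-196 libraries, 13464 against 8505 and 9798. Depth per library is unknown, and its part in these differences was not tested.

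PCDHGA7, PCDHGB4, PCDHGA8, PCDHGB6 and PCDHGA10 were the gamma genes whose segments were marked in all 14 libraries. With PCDHB14 they made 6 of 53 members, against 8.58% of all segments in the genome, which were not matched in length. The starts of PCDHGA7 and PCDHGB6 lay under a peak in 0 of 14 libraries. Only the ends of their segments next to PCDHGB4 and PCDHGA10 were covered. PCDHGB4 (start 141387698) was covered over its entire segment of 4.94 kb in each library. PCDHGA10 (start 141412987) was covered over 4.69 kb, its entire segment, in all libraries except A-196 replicate 2, with 4.01 kb. PCDHGA8, between them, had 4.37, 3.37 and 2.37 kb of its 5.31 kb covered with DMSO and 5.31, 4.37 and 5.31 kb with A-196, and was covered whole in all 8 libraries of the siRNA arm. The part of the locus under peaks in all 14 libraries came to 68 of 727 bins of 1 kb, or 9.35%, against 0.811% of the genome. It consisted of 4 runs: 141253001 to 141271000 and 141291001 to 141327000 between beta and gamma, 141386001 to 141395000 with the starts of PCDHGB4 and PCDHGA8, and 141412001 to 141417000 with the start of PCDHGA10. No part of beta was covered in all 14.

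PCDHGB2 (start 141359994) was covered over its whole segment of 4.17 kb in every library but A-196 replicate 2, where it had no peak. Its neighbour PCDHGA4 had 2.99, 2.99 and 3.99 kb covered in DMSO libraries, 3.99, 0 and 3.99 kb in A-196 libraries, and 2.99 to 3.99 kb in the siRNA arm. PCDHGA5, after PCDHGB2, had 1.84, 0.839 and 2.84 kb covered with DMSO and 2.84, 0 and 1.84 kb with A-196. In the siRNA arm its segment of 6.08 kb was covered over 3.84, 5.84, 6.08 and 6.08 kb with siNC and over 6.08, 4.84, 6.08 and 6.08 kb with siSUV420H1, so these groups overlapped. PCDHGA1, the first gamma gene, lay at the end of the large domain: 4.49, 1.49 and 2.49 kb of its 8.25 kb were covered in DMSO libraries, 3.49, 0.487 and 8.25 kb with A-196, 0, 0.487, 0 and 0 kb with siNC and 3.49, 0.487, 3.49 and 0.487 kb with siSUV420H1. PCDHGA2 and PCDHGA3, next to it, were covered in siNC replicates 1 and 2 (3.83 and 1.83 kb, and 4.17 and 3.17 kb) and in no siSUV420H1 library, the only members with a peak in some siNC libraries and none in siSUV420H1.

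The siRNA groups differed most in gamma at PCDHGA12, PCDHGA11 and PCDHGB5. Peaks covered 3.49, 1.49, 1.49 and 0 kb of the PCDHGA12 segment with siNC and 5.49, 5.49, 5.49 and 4.49 kb with siSUV420H1. PCDHGA11 (segment 9.46 kb) had 6.46, 7.46, 6.46 and 3.95 kb with siNC and was covered whole in each siSUV420H1 library. PCDHGB5 (segment 4.83 kb) had 2.05, 2.05, 2.05 and 4.05 kb with siNC and was also covered whole in each siSUV420H1 library. All 3 showed separate groups, with the covered part longer after siSUV420H1. PCDHGA7 had 2.70, 2.70, 2.70 and 1.70 kb with siNC and 3.70 kb in each siSUV420H1 library, and PCDHGA9 had 0 kb in each siNC library and 0.223, 1.22, 0.223 and 0.223 kb with siSUV420H1. These last differences are near the 1 kb grid on which peaks were deposited. Peaks ended within the segment of PCDHGA12 in every library that reached it.

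The end of the gamma cluster had no peak. PCDHGC3, PCDHGC4 and PCDHGC5, the C-type genes, had 0 kb over their segments in each of the 14 libraries, and so did the constant exons after them, since the last covered base in any library was 141436000. PCDHGB1 was the other gamma gene with no peak in its segment. Together, 29 of the 53 members had no peak in their segment in any library: all 15 alpha, 10 beta and 4 gamma genes. Over the genome 55.1% of segments had none, but these were not matched in length to the members' segments. A longer segment meets a peak more readily, so this share does not show whether the members are near the background. By start, which has no length, 34 of the 53 members lay under no peak in any library, against 90.9% of all coding gene starts. The 29 members were spread unevenly over the clusters and included all 5 C-type genes.

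**Figure D4:**
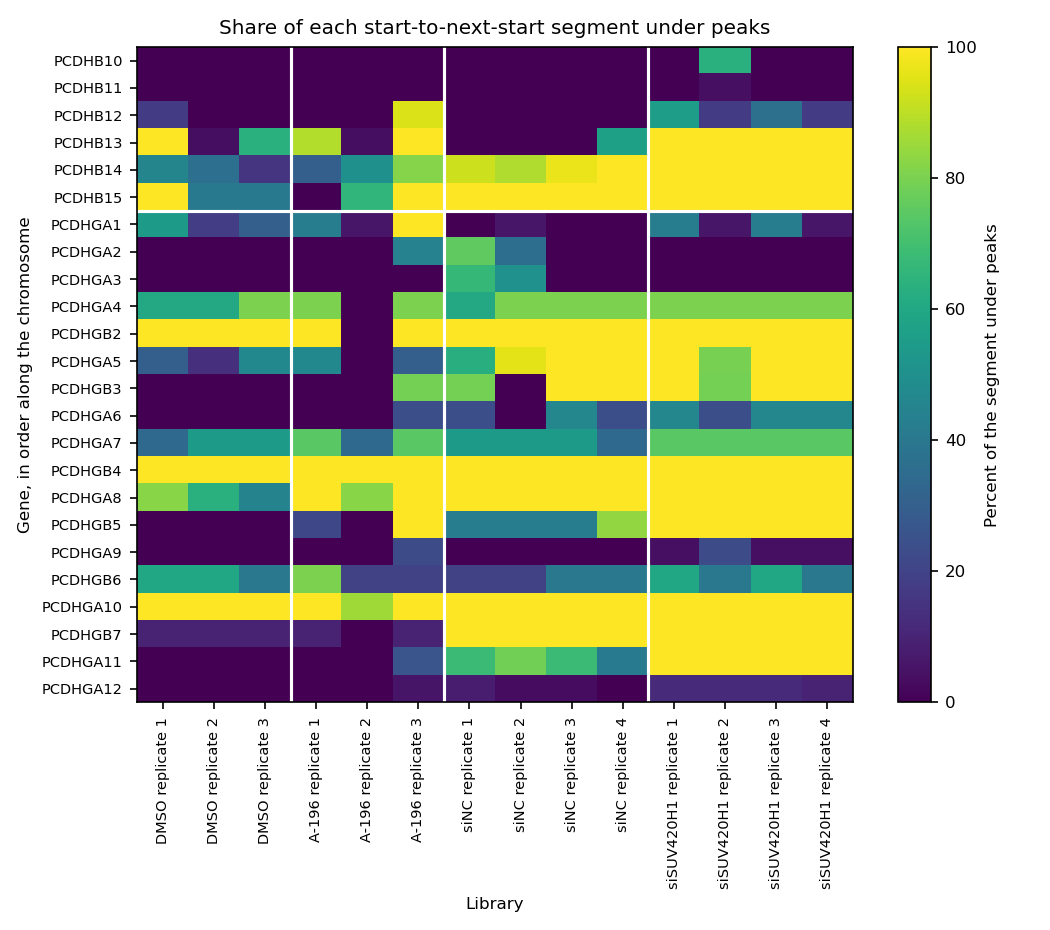
Percent of each segment, from a gene's start to the next gene's start, under H4K20me3 peaks (colour, 0 to 100) for the 24 members with a peak in any library (rows, in chromosome order) and the 14 libraries (columns); white lines part the groups and the beta from the gamma genes. PCDHGB4 is at 100 in every column, PCDHB13 is at 100 in the 4 siSUV420H1 columns and at 0 in 3 of 4 siNC columns, and PCDHGB2 is at 0 only for A-196 replicate 2.

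Counted over genes, 13 members were marked in every DMSO library, 3 beta and 10 gamma genes. Of these, 8 were marked in every A-196 library and none was without the mark in all 3. Over the genome, segments marked in every DMSO library made up 16.8% of all. Of these, 57.9% kept the mark in each A-196 library and 9.91% had it in none. Segments of the genome were not matched in length to those of the members, here and for siNC below. No member was marked in every A-196 library and no DMSO library, against 1.96% of segments. Of 21 members with a peak in this arm, 0 were higher and 0 were lower in every A-196 than in every DMSO library, against 6.07% and 25.3% of all segments with a peak. Without A-196 replicate 2, 12 of the 13 members were marked in both other libraries and 3 members were higher, and leaving out DMSO replicate 1 or A-196 replicate 1 gave 1.

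With siNC, 13 members were marked in every library, 2 beta and 11 gamma genes, against 23.7% of all segments, and all 13 were marked in every siSUV420H1 library. Over the genome 67% of the segments marked in every siNC library were, and 18.5% were marked in no siSUV420H1 library. The segments of PCDHB12 and PCDHGA9 were marked in every siSUV420H1 and no siNC library, as were 0.542% of all segments unmarked in siNC. Over the gene itself, PCDHB12 had no peak in siSUV420H1 replicates 2 and 4. The covered lengths were short, and near the 200 bp limit for PCDHGA9. The lowest value with siSUV420H1 was 0.223 kb for PCDHGA9 and 0.918 kb for PCDHB12, so neither would count at 1000 bp. Of 24 members with a peak in this arm, 7 were higher in every siSUV420H1 than in every siNC library (PCDHB12, PCDHB13, PCDHGA7, PCDHGB5, PCDHGA9, PCDHGA11 and PCDHGA12) and 0 were lower. Of all segments with a peak, 7.89% were higher and 47.7% were lower. Neighbouring segments can lie under the same peak, so the 7 genes are not 7 separate observations. With whole RefSeq spans, 20 members were higher, since every gamma span runs to the same end and takes in the same peaks, and 10.4% of all spans were.

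Counted over peaks, merging the peaks of all libraries of an arm gave 8 regions in the locus for DMSO and A-196. Peaks of all 6 libraries fell in 5 of them, and no region was held by every library of 1 group and none of the other. The siRNA arm gave 6 regions, 4 of them with peaks of all 8 libraries and again none held by every library of 1 group and none of the other. Over the genome 32.6% of the regions present in every DMSO library were present in every A-196 library and 27.2% in none, and 49.5% and 32.2% were the values for siNC and siSUV420H1. Of the regions present in every treated library, 12% in the inhibitor arm and 4.64% in the siRNA arm were in no control library. In bins of 1 kb, 93 kb of the locus lay under peaks in every DMSO library, of which 74 kb (79.6%) did in every A-196 library, and 0 kb in none. In the siRNA arm all 124 kb under peaks in every siNC library were under peaks in every siSUV420H1 library. The genome values were 26.2% for A-196 and 49.7% for siSUV420H1, with 36.1% and 32.1% of the control bins covered in no treated library. Bins in every treated and no control library came to 1 of 90 kb in the locus with A-196 and 11 of 176 kb with siSUV420H1, against 5.46% and 4.73% over the genome.

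The length under peaks in the locus thus stood beside a shorter length in the genome as a whole. The genome held 148 ± 4.29 Mb under peaks for DMSO and 96.7 ± 15 Mb for A-196 (SD, n = 3), and 187 ± 5.47 Mb with siNC and 124 ± 4.67 Mb with siSUV420H1 (SD, n = 4). Set to the control mean, the locus stood at 114% ± 28.7 with A-196 and the genome at 65.3% ± 10.1, and in the siRNA arm the locus stood at 122% ± 2.48 and the genome at 66.3% ± 2.49. Of each 1000000 covered bases (ppm), 786 ± 79.5 lay in the locus in DMSO and 1388 ± 311 in A-196 libraries, and 814 ± 33.8 with siNC and 1502 ± 82.2 with siSUV420H1. These shares were higher in every treated library than in every control library of the same arm. A share of a shorter total is larger even where the length in the locus is the same. CUT&RUN was done on bulk cells, so a mark on fewer cells and less mark per cell cannot be told apart.

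**Figure D5:**
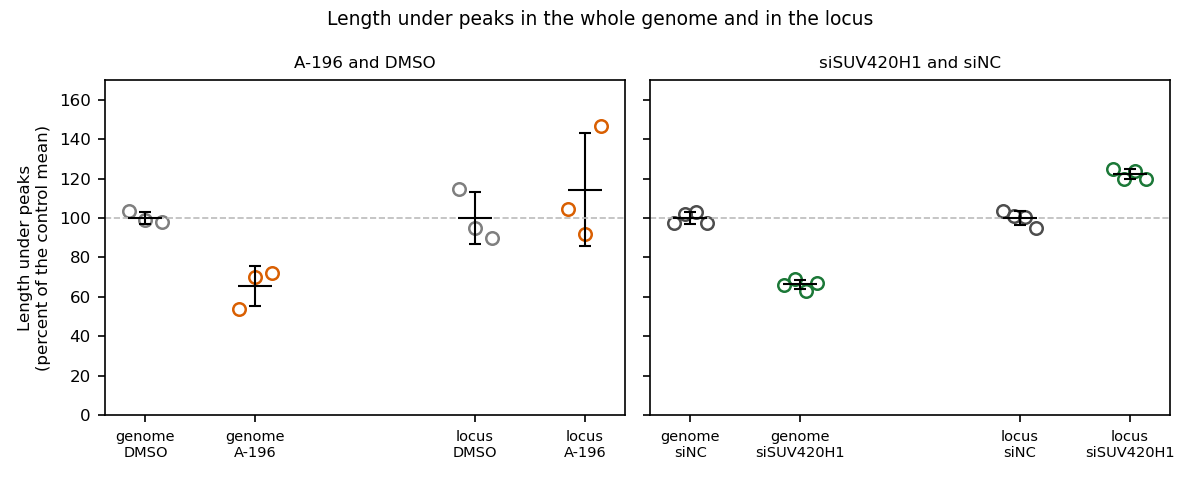
Length under peaks as a percent of the control group's mean (y axis) for the whole genome and for the protocadherin locus, in the inhibitor arm (left) and the siRNA arm (right); circles are libraries, bars are means with SD, and the dashed line is the control mean. The 4 siSUV420H1 libraries lie at 120 to 125 for the locus and at 63.1 to 69.1 for the genome, and the A-196 libraries at 91.7 to 147 for the locus.

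The overlap between libraries was higher on average in the locus than over the genome in each group. The mean Jaccard index, the shared covered length divided by the length covered in either library, was 0.944 among siSUV420H1 libraries in the locus and 0.689 over the genome. It was 0.827 and 0.772 among siNC libraries, 0.777 and 0.750 among DMSO libraries, and 0.649 and 0.315 among A-196 libraries. Single pairs of control libraries overlapped between locus and genome: 0.749 to 0.891 against 0.757 to 0.781 for siNC, and 0.745 to 0.815 against 0.742 to 0.762 for DMSO. Between groups it was 0.783 in the locus and 0.447 over the genome for siNC with siSUV420H1, and 0.720 and 0.302 for DMSO with A-196. The pairs share libraries and were not tested.

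The transcription start itself lay under a peak in all 14 libraries for 3 members, PCDHGB4, PCDHGA8 and PCDHGA10, and in none for 34. Of 22012 starts of coding genes in the RefSeq promoter table, 0.663% were covered in all 14 libraries and 90.9% in none. Of the 53 members, 8 starts were covered in every DMSO library and 5 in every A-196 library, against 2.94% and 1.01% of all starts. In every siNC library 9 were covered and in every siSUV420H1 library 15, against 2.61% and 1.96% of all starts. From control to treated groups, the number of starts covered in every library was thus lower in the genome in both arms. Among the members it was lower with A-196 and higher with siSUV420H1. In single libraries, 10, 9 and 8 member starts were covered with DMSO and 9, 6 and 15 with A-196, so these groups overlapped. Each siNC library had 12 covered and each siSUV420H1 library 16. These differences in number were not tested. The start of PCDHB13, whose promoter is printed above with the beta word GGTGGCGCTG, was covered in 4 of 4 siSUV420H1 and 0 of 4 siNC libraries, and so was the start of PCDHGA9 with the gamma word GCGCCGCTGT. PCDHGB5, which shares the run of 78 bases with PCDHGB4, had its start covered in 0 of 3 DMSO libraries, where PCDHGB4 was covered in 3 of 3. The starts of PCDHGB5 and PCDHGA11 were covered in all 4 siNC and no DMSO libraries. That difference between the controls of the arms cannot be told apart from the different IgG libraries and the transfection.

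Outside the clusters, the 200 kb before alpha differed between the arms. A peak ending 9.14 to 18.1 kb before the start of PCDHA1 was present in all 8 libraries of the siRNA arm and in DMSO replicate 3, where it was 5 kb wide. Over the 200 kb, peaks covered 35, 31, 31 and 37 kb with siNC and 26, 29, 18 and 20 kb with siSUV420H1, so here every siSUV420H1 library was lower than every siNC library, the opposite order to that in beta and gamma. DMSO libraries held 0, 0 and 5 kb and A-196 libraries 0 kb. Of the 17 coding genes in the flanks and between the clusters, 12 had no peak in any library, against 69.3% of all coding gene spans. TMCO6 and CD14, the latter a co-receptor for bacterial lipopolysaccharide, were marked in all 8 libraries of the siRNA arm and in none of the inhibitor arm. DIAPH1, a formin that assembles actin filaments and lies after gamma (141515021 to 141619000), had 19.98, 18.98 and 17.98 kb under peaks with DMSO and 9, 0 and 29.98 kb with A-196. It had 16, 11, 11 and 10 kb with siNC and 27.98, 20, 19 and 13 kb with siSUV420H1, and the groups of each arm overlapped.

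Of 22 genes listed as regulators of protocadherin transcription or of chromatin in general, 14 had no peak over their span in any library. This is close to the 69.3% of all coding gene spans without one. CTCF and WAPL, which releases cohesin from DNA, were among the 14. STAG1, a cohesin subunit, had 10, 11, 10 and 11 kb of its span under peaks with siNC and 26, 16, 22 and 27 kb with siSUV420H1, every siSUV420H1 library being higher. RAD21, another cohesin subunit, had 2.78 kb in each DMSO library and 0, 0.776 and 1.78 kb with A-196, all lower. These were the only members of that list whose groups did not overlap in an arm, in a background of 10.4% of spans higher with siSUV420H1 and 18.8% lower with A-196. NIPBL, which loads cohesin, was marked in all 3 DMSO libraries and 1 A-196 library, and SETDB1, a histone H3K9 methyltransferase, in all 8 libraries of the siRNA arm. Of 14 genes for enzymes and partners of protocadherin proteins, 10 had no peak in any library, again near that share. ADAM10, a protease that sheds protocadherin ectodomains, had 15, 14 and 10 kb under peaks in DMSO libraries and 0, 6 and 0 kb in A-196 libraries, and 18, 18, 18 and 20 kb with siNC against 0, 0, 5 and 6 kb with siSUV420H1. It was lower in every treated library in both arms, as were 18.8% of all spans with A-196 and 32.6% with siSUV420H1.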

How the data were processed

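The 14 H4K20me3 libraries were used, grouped by title; the other 10 samples of the 24 in the labels were not analysed here. Per the labels' protocols, each reaction used 500000 cells. Per the submitters' processing notes, the build was hg38 and the tools included bedtools 2.30.0, Picard 2.27.3, Bowtie and cutadapt 4.4; the peak caller is not given in the sources used here. Per the labels of the deposited lists, duplicates were removed and each library was set against 1 IgG library per arm. The deposited lists give chromosome, start and end of broad peaks on a 1000 bp grid, at least 5 kb wide, with no score or count, so depth is unknown and no interval on counting error is given.

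Gene positions came from RefSeq (GRCh38.p14). Kb under peaks were computed with Python 3.11.15, numpy 2.4.6 and scipy 1.17.1, checked on simulated peaks. Mean kb of 2 groups was tested by two-sided exact permutation; arms by exact permutation within arms of the difference in log2 ratio of mean kb plus 1; 9 tests were adjusted by Benjamini-Hochberg (threshold 0.05). Counts of members have no test. Except under some alternatives, they stand beside the share of all segments, spans, starts or windows. Segments of other genes run between lowest gene coordinates, whatever the strand, and were not matched in length to those of the members. Alternatives covered peak width, merging within 5 kb, equal peak numbers, stretches extended by 20 kb, medians, shares of covered bases, the segment definition, the replicate block and single libraries left out. Per-library values were given for the 4 members of each cluster with most kb in controls, the C-type genes, the first and last members and up to 4 with the largest difference; other members named were chosen after their values were seen. Members and lists were chosen with earlier results of these data known.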

Additional observations from a re-analysis of the deposited data

Results flagged for a closer look

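In the groups of 4 libraries, 36 sets of values with any spread were examined for a library far from the other 3, and 15 were found; chance gives about 1 in 20. With only 4 libraries on a 1 kb grid, 3 equal values and a different value meet this criterion whatever the size of the gap. SiSUV420H1 replicate 2 was the one apart in 7: the interval between beta and gamma (78.1 kb under peaks, the other 3 at 81.1 kb), PCDHB10 (4.63 kb) and PCDHB11 (0.374 kb), where the other 3 had none, PCDHGA5 (4.84 kb), PCDHGB3 (2.89 kb) and PCDHGA6 (2.11 kb), where the other 3 were higher, and PCDHGA9 (1.22 kb), where they were lower. SiNC replicate 4 was apart at PCDHB13 (5.34 kb, the other 3 at 0), PCDHGA7 (1.70 kb, the lowest) and PCDHGB5 (4.05 kb, the highest). SiNC replicate 1 was apart in the 200 kb after gamma (16 kb), at PCDHGA4 (2.99 kb) and at PCDHGA5 (3.84 kb). SiNC replicate 2 was apart at PCDHGA1 (0.487 kb, the other 3 at 0), and siSUV420H1 replicate 4 at PCDHGA12 (4.49 kb, the other 3 at 5.49 kb). At PCDHB13 and PCDHGB5 the library apart in siNC was the one nearest to the siSUV420H1 libraries.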

How the results depend on the processing

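The differences of 12.3 kb in beta and 13.6 kb in gamma between siSUV420H1 and siNC stayed positive under all 15 alternatives for each, with adjusted p from 0.129 to 0.563 (exact permutation tests), and leaving out 1 library gave 11.3 to 14 kb and 12.3 to 14.99 kb. With wide peaks only, and with equal peak numbers, the gamma difference was 20.9 kb in the siRNA arm and 2 and 1.67 kb in the inhibitor arm, and the arms differed in gamma by -0.44 and -0.46. With the replicate block the same differences had p = 0.125 (exact sign-flip test within pairs, adjusted p = 0.563), and 0.75 for the 6.67 kb of the inhibitor arm; same-numbered libraries did not deviate together, 1 of 7 correlating best with its own number, and the block changed no call. In the inhibitor arm, leaving out 1 library gave -0.62 to 11.3 kb in beta and -3 to 17 kb in gamma, negative only without A-196 replicate 3. The difference between arms, near 0, had either sign: in beta 0.29 with wide peaks only, 0.027 with peaks merged within 5 kb, 0.27 with equal peak numbers and -0.59 to 0.45 with 1 library left out, and in gamma 0.079 with merged peaks, 0.0013 as a share of covered bases and -0.46 to 0.30 with 1 library left out. No alternative passed the threshold, which in the main setting the tests within an arm could not have passed.

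Counts of members depended on the region counted. Members higher with siSUV420H1 were 2 over 600 bases around each start and 20 over whole spans. Members marked in every DMSO library were 8 over 600 bases and 7 with wide peaks. Those kept in every A-196 library were 5 with 1000 bp covered, 4 over 600 bases, 4 with wide peaks and 16 of 18 over spans. Of all spans marked in every DMSO library, 46.2% were kept in every A-196 library. With spans, 20 were marked in every siNC and 20 of those in every siSUV420H1 library. Of all spans, 12.7% were marked in every siNC library, and 66.3% of those in every siSUV420H1 library. Counts over 600 bases, with 1000 bp covered, with wide peaks or with 1 library left out have no share of all genes beside them. With 1 library left out, 0 to 3 members were higher and 0 to 1 lower with A-196, and 8 to 12 were kept. Unknown depth, the 1 kb grid and the 5 kb minimum limit what could be seen.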
